A study of Mus musculus with 7 samples.

Results

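The genes described here are 50 genes of mitosis and the G2/M step of the cell cycle, taken as a named list and matched to array probes through the accession of each probe. All 50 had a probe, and 49 were among the 25370 genes tested. The cells were cultured ILC2s, the innate lymphoid cells of group 2, which carry no antigen receptor and secrete type 2 cytokines. The knockout group was Gfi1GFP/GFP, in which a GFP cassette in the Gfi1 gene removes the function of this transcriptional repressor and reports its promoter activity, and the wild-type group was Gfi1+/+. Both groups received IL-25 daily for 4 days, and on day 5 Lin-/Sca-1+/ICOS+/CD127+/c-Kit+ cells were sorted from the mesenteric lymph nodes and grown for 6 days with IL-2 and IL-25 at 50 ng/ml each and IL-7 at 10 ng/ml. A sample pooled 6 mice in the knockout group and 3 mice in the wild-type group. There were 3 knockout arrays (KO1 to KO3) and 4 wild-type arrays (WT1 to WT4). The labels do not give the strain, sex or age of the mice.

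A cell enters mitosis when cyclin-dependent kinase 1, bound to cyclins A2, B1 and B2, becomes active. Mitotic kinases, kinesins and condensin then build the spindle and compact the chromosomes, and the spindle checkpoint holds back the anaphase-promoting complex (APC/C) until every kinetochore is attached. Most of these genes are transcribed late in the cycle, through promoters with CCAAT boxes and a cell cycle genes homology region (CHR) that binds MuvB complexes, while resting cells keep them low. Lymphocytes given growth cytokines in culture divide, so their RNA holds these transcripts. In RNA from a whole culture, a change in the share of cells in mitosis and a change in the RNA per such cell cannot be told apart.

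Promoter windows from RefSeq (GRCm38.p6), running from 250 bases before to 50 bases after a gene's start, were matched by symbol for 42 of the 50 genes, which gave 45 windows. The CHR letters TTTGAA stood on either strand in 34 of the 45 windows (75.6%), against 17.9% of all 32851 windows of that length. The letters CCAAT stood on either strand in 36 windows (80%), against 37.4% of all windows, and both motifs were found in 31 (68.9%), against 6.95%. The motifs can share at most 1 base. Of the comparison lists used below, the windows of other mitosis genes held TTTGAA in 29 of 58 (50%) and those of S-phase genes in 3 of 34 (8.82%). These are matches of letters only. Kif20a, Aurkb, Foxm1, Cdc25c, Incenp, Tpx2, Ccna2 and Smc4 had no entry in the table.

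The 120 bases before the start are shown for Kif23 and Nek2, which passed the test below, for Ube2c, which came close to it, and for Cdk1, Top2a and Cdc20, which are described array by array. Capitals mark CCAAT or its reverse complement ATTGG, and TTTGAA or its reverse complement TTCAAA.
Kif23 (chr9:61946800-61946919, minus strand): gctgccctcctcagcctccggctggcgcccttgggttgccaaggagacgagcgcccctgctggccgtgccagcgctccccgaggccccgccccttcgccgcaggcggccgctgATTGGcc
Nek2 (chr1:191821353-191821472, plus strand): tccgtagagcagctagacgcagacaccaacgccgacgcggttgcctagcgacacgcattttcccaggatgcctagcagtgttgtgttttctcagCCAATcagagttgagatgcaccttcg
Ube2c (chr2:164769809-164769928, plus strand): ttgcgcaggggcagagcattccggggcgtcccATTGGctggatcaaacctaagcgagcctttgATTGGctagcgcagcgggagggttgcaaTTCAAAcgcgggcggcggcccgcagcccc
Cdk1 (chr10:69352913-69353032, minus strand): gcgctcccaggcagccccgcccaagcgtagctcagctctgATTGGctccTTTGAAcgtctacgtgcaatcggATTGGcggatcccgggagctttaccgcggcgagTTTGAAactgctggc
Top2a (chr11:99024190-99024309, minus strand): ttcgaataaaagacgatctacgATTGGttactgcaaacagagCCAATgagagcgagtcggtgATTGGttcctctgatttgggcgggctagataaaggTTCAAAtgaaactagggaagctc
Cdc20 (chr4:118437344-118437463, minus strand): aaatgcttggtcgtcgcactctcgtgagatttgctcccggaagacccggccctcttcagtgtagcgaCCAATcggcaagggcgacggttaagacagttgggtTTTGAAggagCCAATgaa
Cdk1 carries the CHR letters at 2 places in this stretch, Cdc20, Ube2c and Top2a at 1 place each, and Nek2 has none in its whole window. The CHR letters of Kif23 begin at base 3 after the start and so lie outside the stretch shown. Every stretch shown holds a CCAAT box.

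Each array carried 1 ILC2 sample in the red channel (Cy5) and a commercial mouse reference RNA in the green channel (Cy3), so the ratios given are log2 of red over green, and a difference is knockout minus wild type. Tests were made with limma over all 25370 genes, with Benjamini-Hochberg adjustment and a threshold of 0.05. Each sample was a separate pool of mice per the labels, and p-values measure the spread between these samples. In the red channel, 70.7% to 80.9% of probes were well above background on knockout arrays and 67.4% to 80.5% on wild-type arrays. Over the 25370 genes tested the arrays correlated at 0.969 to 0.980 within the knockout group, 0.979 to 0.989 within the wild-type group and 0.942 to 0.969 between groups. The arrays lay on 3 slides, which the file names give: KO1 and WT4 on slide 1, KO2, KO3 and WT1 on slide 2, and WT2 and WT3 on slide 3. The Gfi1 probe gave 4.29, 4.25 and 4.29 on knockout arrays against 1.90, 1.87, 2.36 and 1.96 on wild-type arrays. It was higher on the arrays labelled knockout, and its place relative to the GFP cassette is not given in the sources used here, so it checks no label.

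All 15 ILC2 markers listed, among them Gata3, Il1rl1 and Il17rb, were well above background on all 7 arrays. Their median difference was -0.30, with 1 of 15 called higher and 3 of 15 lower, against 3.26% and 4.23% of all genes. On KO1 to KO3 their median deviation from the wild-type mean was -0.19, -0.25 and -0.23. These values lay below all of WT1 to WT4 (-0.08, -0.04, 0.18 and -0.00). Of the other cell types, the summed red signal of the natural killer cell list (5 of 6 markers tested, none called) was 319697 to 366352 on knockout arrays and 130904 to 291234 on wild-type arrays, while Ncr1 was above background on no array. The erythroid list (4 of 6 tested, 1 lower) summed to 951 to 1013 on knockout arrays and 1274 to 1974 on wild-type arrays, with Hbb-bs above background on no array. The summed T cell, B cell, myeloid, and mast cell and basophil signals overlapped between the groups. By its median deviation, however, the T cell list (9 of 11 tested, none called) was 0.16, 0.30 and 0.13 on KO1 to KO3, above all of WT1 to WT4 (-0.11, -0.02, -0.02 and 0.03). The part of other cells in the results below was not tested.

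Mitosis and G2/M genes were mostly a little higher in the Gfi1 knockout, but few of them passed the adjusted threshold. Of the 49 tested, 46 had a difference above 0 (93.9%), against 46% of all genes. Their median difference was 0.27 on the log2 scale, with a middle range of 0.19 to 0.37, while the median of all genes was -0.01. With the brightest probe standing for each gene, only 3 genes passed the threshold, Nek2, Kif23 and Kif20a, all higher in knockout cells. That is 6.12% of the genes tested against a background of 3.26% called higher. Birc5 was not called by its brightest probe, but 2 dimmer probes had limma p-values adjusted over all probes of 0.0126 and 0.00993. No gene of the list was called lower, against 4.23% of all genes, and 7.49% of all genes were called in either direction. At an unadjusted p under 0.05, 17 were higher and 0 were lower (34.7% higher), against 9% of all genes higher and 10.5% lower. In 12 genes every knockout array lay above every wild-type array (24.5%), against 8.07% of all genes, and in none did every knockout array lie below, against 10.2%.

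**Figure D1:**
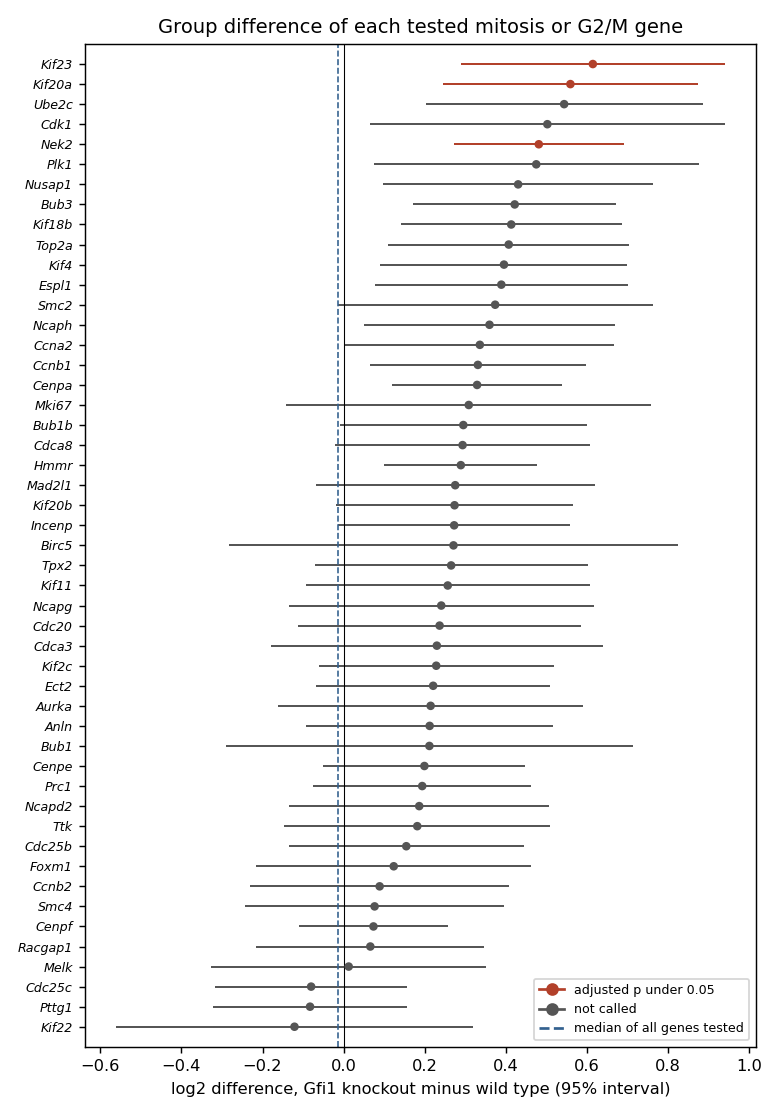
Knockout minus wild-type difference (log2) of the 49 tested mitosis and G2/M genes, with 95% intervals from limma. Nek2, Kif23 and Kif20a pass the adjusted threshold, 46 of 49 differences lie above 0, and the intervals of 17 genes lie wholly above 0.

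The pattern was not the same within slides 1 and 2, each of which held 1 wild-type array. WT1, the one on slide 2, was the highest wild-type array in 45 of 48 genes, against 5396 of 25303 among all genes. An effect of slide and a difference between single samples cannot be told apart here. Within slide 1, KO1 minus WT4 was above 0 for 46 of 48 genes (95.8%, against 46.1% of all genes), with a median of 0.32. Within slide 2, the mean of KO2 and KO3 minus WT1 was above 0 for 23 of 49 genes (46.9%, against 49.5% of all genes). The median there was -0.01. Slide 3 held wild-type arrays only and gives no within-slide value. With slide as a block the median of the 49 genes was 0.15 and none was called, while that fit called 1.88% of all genes in either direction and 0.918% higher. The difference was above 0 within both slides for 21 of the 48 genes with all values, against 6357 of the 25370 genes tested. Nek2, Kif23 and Kif20a were among the 21.

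**Figure D2:**
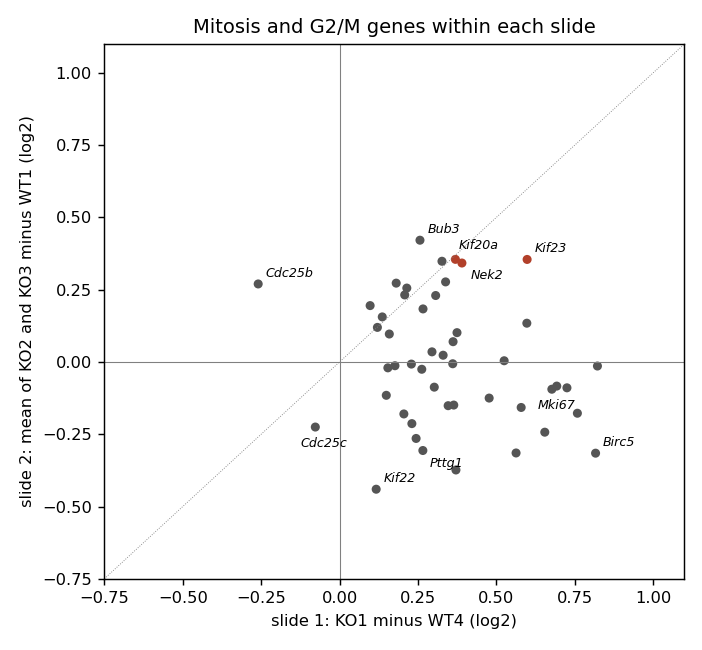
Difference within slide 1 (KO1 minus WT4, horizontal, log2) against difference within slide 2 (mean of KO2 and KO3 minus WT1, vertical, log2), 1 point per gene, with called genes in red. Nearly all points lie right of 0 on the horizontal axis, while on the vertical axis 23 of 49 genes lie above 0; Nek2, Kif23 and Kif20a are above 0 on both.

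The genes varied together from array to array within both groups. As a deviation from each gene's wild-type mean, the median of the list was 0.35 on KO1, 0.35 on KO2 and 0.09 on KO3, against 0.20 on WT1, 0.03 on WT2, -0.26 on WT3 and 0.03 on WT4. WT1 therefore lay above KO3 in its list median, and the 2 groups of arrays overlapped. The mean of these array medians was 0.27 ± 0.15 in the knockout group (SD, n = 3) and 0.00 ± 0.19 in the wild-type group (SD, n = 4). WT1 was the highest and WT3 the lowest of the wild-type arrays in 40 of 48 genes (83.3%), a pattern seen in 10.4% of all genes. In the comparison lists described below it was seen in 45 of 65 other mitosis genes (69.2%) and 28 of 34 S-phase genes (82.4%). KO3 was the lowest knockout array in 32 of 49 genes (65.3%), against 35.2% of all genes. That share was 56.9% for the other mitosis genes and 58.8% for S-phase genes. KO3 lay below WT1 in 31 of 48 genes, against 12824 of the 25261 tested genes with a value on every array.

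The genes' deviations from their group means had a median pairwise correlation of 0.66 over the 7 arrays, which is a description of 48 genes that share the same samples. The median SD of a gene was 0.21 in the knockout group and 0.20 in the wild-type group, against 0.13 and 0.12 for all genes. Leaving out 1 array at a time, the median difference of the 49 genes was 0.36 without KO3, 0.34 without WT1, 0.19 without KO1 and 0.17 without WT3.

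**Figure D3:**
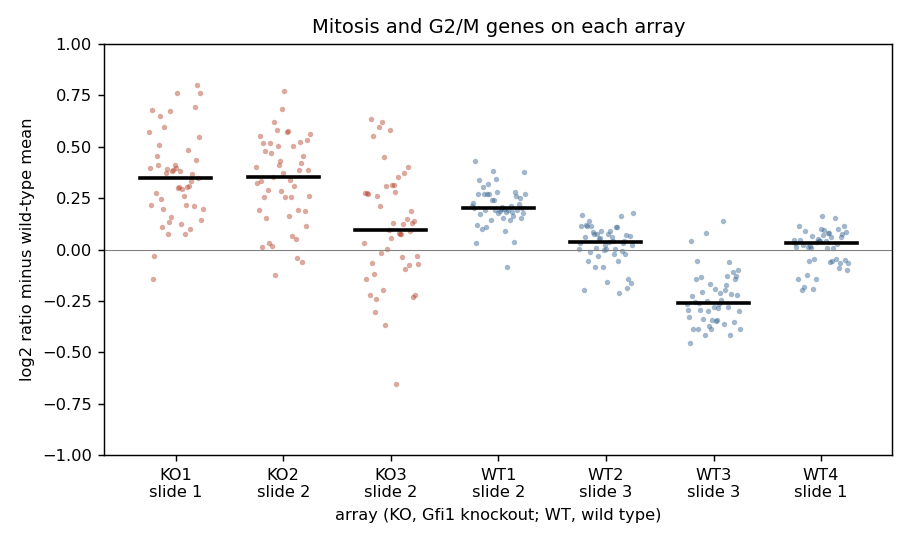
Log2 ratio minus the gene's wild-type mean on each array, 1 point per tested mitosis or G2/M gene, with a bar at the median and the slide under each array name. The medians are 0.35, 0.35 and 0.09 on KO1, KO2 and KO3 and 0.20, 0.03, -0.26 and 0.03 on WT1 to WT4.

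**Figure D4:**
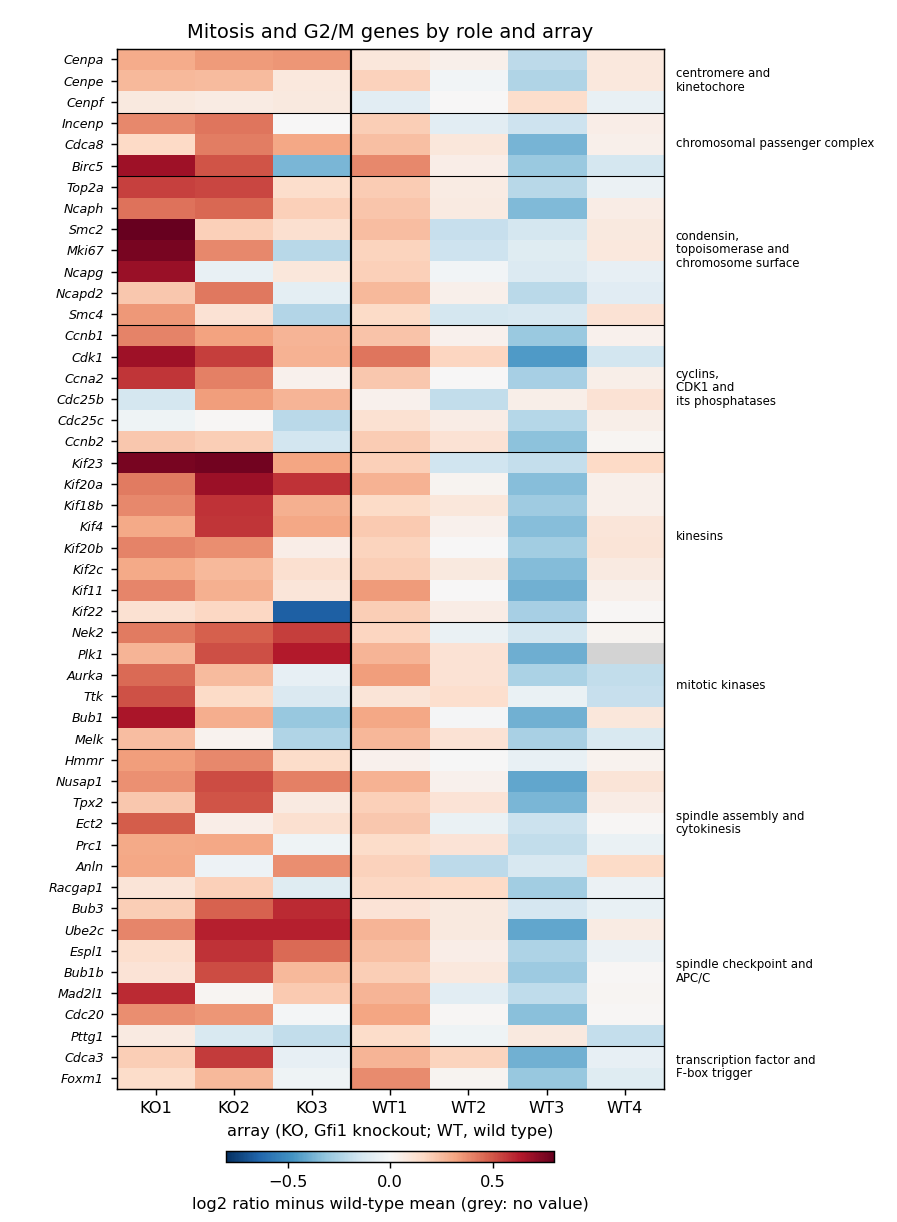
Log2 ratio minus the gene's wild-type mean for each of the 49 tested genes (rows, grouped by role) on the 3 knockout and 4 wild-type arrays (columns); red is above the wild-type mean, blue below it and grey has no value. KO1 and KO2 are red for most genes, KO3 is mixed, WT1 is mostly pale red and WT3 mostly blue.

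Among the cyclins, CDK1 and its activating phosphatases, 5 of 6 differences were above 0, with a median of 0.24, and none was called. Ccnb1, the B-type cyclin that drives mitotic entry, had ratios of 0.23, 0.16 and 0.11 on knockout arrays, against 0.07, -0.13, -0.46 and -0.13 on wild-type arrays. The groups did not overlap, with a difference of 0.33 (SE 0.12, limma adjusted p = 0.149). Its other 2 probes gave 0.43 and 0.41. Cdk1, the catalytic partner of these cyclins, had ratios of 0.52, 0.40 and 0.12 on knockout arrays, against 0.27, 0.01, -0.61 and -0.30 on wild-type arrays. KO3 lay below WT1, and the difference of 0.50 (SE 0.19, limma adjusted p = 0.183) stood beside 0.30 and 0.09 for its other 2 probes. Ccna2, the cyclin of S phase and early mitosis, differed by 0.34, Ccnb2 by 0.09, and the phosphatases Cdc25b and Cdc25c by 0.15 and -0.08.

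Of the mitotic kinases, all 6 tested had differences above 0, with a median of 0.21, and Nek2 was called. Nek2, a kinase that separates centrosomes before mitosis, had ratios of -0.02, 0.04 and 0.12 on knockout arrays, against -0.26, -0.49, -0.58 and -0.41 on wild-type arrays. The groups were apart on every array. Nek2 rose 1.40-fold, a difference of 0.48 (SE 0.09, limma adjusted p = 0.0136), and its red channel was 11.64, 11.59 and 11.72 on knockout arrays against 11.32, 11.09, 11.02 and 11.27 on wild-type arrays (log2). On slides 1 and 2 taken alone it differed by 0.39 and 0.34, and a fit with slide as a block gave 0.36, not called (limma adjusted p = 0.176).

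Plk1, the kinase that matures centrosomes and triggers mitotic entry, had ratios of -0.32, -0.07 and 0.05 on knockout arrays, against -0.32, -0.47 and -0.98 on wild-type arrays. Its spot on WT4 was left out as an outlier, so the fit used 3 wild-type values. The lowest knockout value lay just above the highest wild-type value, and the difference was 0.48 (SE 0.17, limma adjusted p = 0.172). Aurkb, the kinase of the chromosomal passenger complex, was well above background on 1 knockout and 1 wild-type array and was not tested. Its ratios were -0.14, -0.00 and -0.03 on knockout arrays and -0.29, -0.09, -0.16 and 0.06 on wild-type arrays, which overlap. Aurka, the spindle pole kinase, differed by 0.21, Ttk (the checkpoint kinase Mps1) by 0.18, the checkpoint kinase Bub1 by 0.21 and the kinase Melk by 0.01.

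Among spindle checkpoint and APC/C genes, 6 of 7 differences were above 0, with a median of 0.30, and none was called. Bub3, a checkpoint protein that brings Bub1 to kinetochores, came nearest to the threshold. Its ratios were 0.87, 1.14 and 1.27 on knockout arrays and 0.78, 0.75, 0.54 and 0.62 on wild-type arrays. The groups did not overlap, with a difference of 0.42 (SE 0.11, limma adjusted p = 0.0521). Taken apart after normalization between arrays, the red channel differed by 0.31 and the reference channel by -0.20.

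Ube2c, the ubiquitin-conjugating enzyme of the APC/C, differed by 0.54 (SE 0.15, limma adjusted p = 0.0651), and its knockout arrays were all above its wild-type arrays. Cdc20, the activator of the APC/C, had ratios of -0.29, -0.31 and -0.67 on knockout arrays, against -0.34, -0.65, -1.0 and -0.65 on wild-type arrays. KO3 lay within the wild-type range, and the difference was 0.24 (SE 0.16, limma adjusted p = 0.478). The separase Espl1 differed by 0.39, the checkpoint proteins Bub1b and Mad2l1 by 0.30 and 0.28, and the securin Pttg1 by -0.08. The other probes of Mad2l1 gave 0.055 and 0.083, and the other probe of Pttg1 gave 0.058.

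The 3 tested genes of the chromosomal passenger complex, which corrects attachments and directs cytokinesis, differed by 0.27 to 0.29, and none was called. Incenp, the scaffold of the complex, had ratios of -0.70, -0.65 and -1.07 on knockout arrays, against -0.89, -1.16, -1.24 and -1.03 on wild-type arrays. KO3 lay within the wild-type range (difference 0.27, SE 0.13, limma adjusted p = 0.283). Birc5, the survivin subunit, had ratios of 0.67, 0.50 and -0.37 on knockout arrays, against 0.38, 0.05, -0.30 and -0.15 on wild-type arrays. KO3 was the lowest of all 7 arrays, and the difference of 0.27 had an SE of 0.25 (limma adjusted p = 0.635). Without KO3 it was 0.59, and without KO1 it was 0.069, neither called. The probe shown is the brightest of 3, and the other 2 differed by 0.64 and 0.62, with limma p-values adjusted over all probes of 0.0126 and 0.00993. Cdca8, the borealin subunit, differed by 0.29.

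Kinesins, the motors of the spindle, held 2 of the 3 called genes, and 7 of their 8 differences were above 0, with a median of 0.33. Kif23, the motor of the centralspindlin complex that bundles midzone microtubules for cytokinesis, had ratios of 1.05, 1.06 and 0.61 on knockout arrays, against 0.48, 0.13, 0.10 and 0.46 on wild-type arrays. The groups did not overlap. Kif23 rose 1.53-fold, a difference of 0.62 (SE 0.15, limma adjusted p = 0.0332), and its red channel was 12.33, 12.43 and 11.97 on knockout arrays against 11.64, 11.28, 11.39 and 11.77 on wild-type arrays (log2). On slides 1 and 2 taken alone it differed by 0.60 and 0.35, and a fit with slide as a block gave 0.46, not called (limma adjusted p = 0.288).

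Kif20a, a motor that carries the passenger complex to the spindle midzone, had ratios of 0.20, 0.47 and 0.36 on knockout arrays, against 0.06, -0.20, -0.56 and -0.17 on wild-type arrays. All knockout arrays lay above all wild-type arrays. Kif20a rose 1.47-fold, a difference of 0.56 (SE 0.14, limma adjusted p = 0.042), and its red channel was 13.67, 14.07 and 13.78 on knockout arrays against 13.60, 13.36, 12.84 and 13.15 on wild-type arrays (log2). On slides 1 and 2 taken alone it differed by 0.37 and 0.35, and a fit with slide as a block gave 0.36, not called (limma adjusted p = 0.351). Leaving out 1 array ended the Kif20a call for KO2, KO3, WT2, WT3 and WT4 (adjusted p = 0.137, 0.0942, 0.096, 0.0597 and 0.0911), and the Kif23 call for KO1, KO2, WT2, WT3 and WT4 (adjusted p = 0.0893, 0.117, 0.0941, 0.0828 and 0.0525). Nek2 was called in all 7 fits without 1 array.

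The other kinesins were not called. Kif18b, which shortens astral microtubules, differed by 0.41, the chromokinesin Kif4 by 0.40, Kif20b by 0.27, the bipolar spindle motor Kif11 by 0.26 and the depolymerase Kif2c by 0.23. Kif22, a chromokinesin that pushes chromosome arms, differed by -0.12: its ratios were -0.22, -0.18 and -1.0 on knockout arrays and -0.15, -0.29, -0.61 and -0.34 on wild-type arrays. KO3 was the lowest of all 7 arrays for this gene, and KO1 and KO2 lay within the wild-type range.

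**Figure D5:**
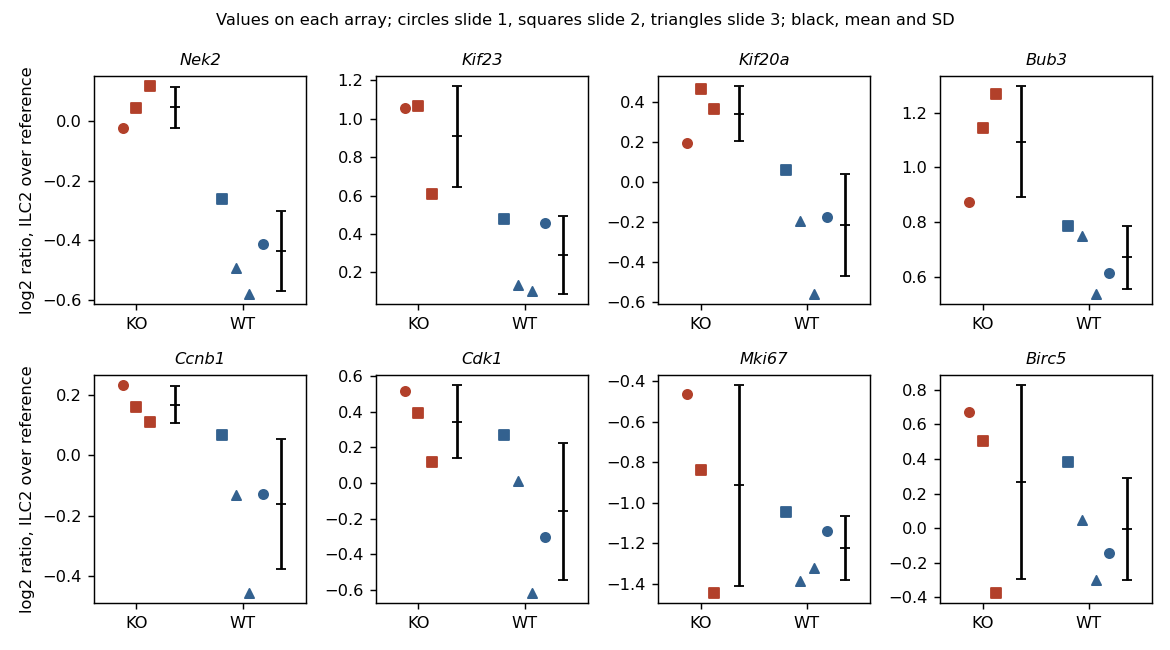
Log2 ratio on each array for Nek2, Kif23, Kif20a, Bub3, Ccnb1, Cdk1, Mki67 and Birc5, knockout in red on the left and wild type in blue, with marker shapes for slides and black bars for the mean and SD. Nek2, Kif23, Kif20a, Bub3 and Ccnb1 show no overlap between groups, whereas KO3 is the lowest point of all for Mki67 and Birc5. Each gene is shown by its brightest probe.

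Of the 3 centromere and kinetochore genes, none was called. Cenpa, the centromeric histone H3 variant, had ratios of -0.57, -0.53 and -0.52 on knockout arrays, against -0.78, -0.83, -1.08 and -0.79 on wild-type arrays. The groups did not overlap, with a difference of 0.33 (SE 0.09, limma adjusted p = 0.0685). The kinetochore motor Cenpe differed by 0.20. Cenpf, which was well above background on 2 knockout and 2 wild-type arrays, differed by 0.07.

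All 7 genes of spindle assembly and cytokinesis had differences above 0, with a median of 0.22, and none was called. Hmmr, a microtubule-associated protein of spindle poles, had ratios of -0.15, -0.10 and -0.34 on knockout arrays, against -0.45, -0.49, -0.55 and -0.46 on wild-type arrays. Its groups did not overlap in this ratio, and its wild-type arrays spanned a narrow range (difference 0.29, SE 0.08, limma adjusted p = 0.0754). In the red channel they did overlap, with WT2 and WT3 (11.27 and 11.49) above KO3 (11.23). The Hmmr red channel differed by 0.17 and its reference channel by -0.12. Nusap1, which crosslinks spindle microtubules, differed by 0.43, the spindle assembly factor Tpx2 by 0.27 and the exchange factor Ect2, which activates RhoA at the midzone, by 0.22. The scaffold Anln differed by 0.21, the midzone bundler Prc1 by 0.19 and the centralspindlin subunit Racgap1 by 0.07. Racgap1 and Kif23 are partners in 1 complex, and their differences were 0.07 and 0.62.

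The condensin subunits, topoisomerase and Mki67 all had differences above 0, with a median of 0.31 over 7 genes, and none was called. Top2a, which untangles sister DNA, had ratios of -0.92, -0.94 and -1.33 on knockout arrays, against -1.27, -1.40, -1.69 and -1.52 on wild-type arrays. KO3 lay just below WT1 (difference 0.41, SE 0.13, limma adjusted p = 0.111). Mki67, the proliferation marker Ki-67 that coats mitotic chromosomes, had ratios of -0.46, -0.84 and -1.44 on knockout arrays, against -1.05, -1.39, -1.32 and -1.14 on wild-type arrays. KO1 and KO2 were the highest and KO3 the lowest of all 7 arrays. The difference was 0.31, with a 95% interval of -0.14 to 0.76 (limma adjusted p = 0.471), and single knockout arrays moved both genes. Without KO3, Top2a and Mki67 differed by 0.54 and 0.57 and were called (limma adjusted p = 0.0336 and 0.0426). Without KO1 they differed by 0.34 and 0.083 and were not called (limma adjusted p = 0.235 and 0.848). The condensin genes Smc2, Ncaph, Ncapg, Ncapd2 and Smc4 differed by 0.37, 0.36, 0.24, 0.19 and 0.08.

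Foxm1, the transcription factor that drives many late cell cycle genes, was not called. Its ratios were -1.06, -0.95 and -1.24 on knockout arrays, against -0.83, -1.18, -1.50 and -1.30 on wild-type arrays. WT1 was above every knockout array, the difference was 0.12 (SE 0.15, limma adjusted p = 0.744), and with slide as a block it was -0.047. Cdca3, an F-box protein that triggers mitotic entry, had ratios of -0.89, -0.53 and -1.16 on knockout arrays, against -0.82, -0.91, -1.47 and -1.15 on wild-type arrays. Its groups overlapped (difference 0.23, SE 0.18, limma adjusted p = 0.575).

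Other mitosis genes outside the 50 were also mostly higher. Of 66 further mitosis genes listed by function, 65 were tested and 56 had a difference above 0 (86.2%, against 46% of all genes), with a median of 0.29. Of these 65, 7 were called higher (10.8%, against 3.26% of all genes) and 0 lower. Cenph, a constitutive centromere protein, rose 1.78-fold, with ratios of -1.25, -1.28 and -1.17 on knockout arrays and -1.77, -1.91, -2.39 and -2.17 on wild-type arrays (limma adjusted p = 0.00706). In 18 of the 65 genes every knockout array lay above every wild-type array (27.7%), against 8.07% of all genes. The 7 called genes were among them, but they were picked by small p from the same values. Psrc1, a microtubule regulator, rose by 0.42, the kinetochore protein Nuf2 by 0.53, the chromatin protein Hmgb2 by 0.51, the centromere protein Cenpn by 0.49 and the chromatin phosphatase regulator Cdca2 by 0.56. Their limma adjusted p-values were 0.00984, 0.0154, 0.0275, 0.0422 and 0.0475. Stmn1, a microtubule destabilizer, was the other gene called (0.44, limma adjusted p = 0.0483).

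Genes of S phase had the larger median. Of 35 listed, 34 were tested, with a median difference of 0.43, 32 above 0 (94.1%, against 46% of all genes) and 2 called higher (5.88%, against 3.26% of all genes). Hells, a chromatin remodeller, rose by 0.72 and Rrm1, the large subunit of ribonucleotide reductase, by 0.60 (limma adjusted p = 0.0244 and 0.0245). On the arrays, the S-phase median deviated by 0.45, 0.48 and 0.34 on KO1, KO2 and KO3, against 0.33, 0.13, -0.40 and -0.08 on WT1 to WT4. The KO3 median was thus 0.34 for S-phase genes and 0.09 for mitosis and G2/M genes, and a difference between these lists was not tested. With slide as a block the medians were 0.20 for the other mitosis genes and 0.26 for S-phase genes, with 0 genes called in either list.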

How the data were processed

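Agilent two-colour arrays measured total RNA of 7 ILC2 samples, 3 Gfi1 knockout and 4 wild type, against a common reference RNA, with no dye swap. The deposited scanner files hold intensity values per spot and a log10 ratio of red over green, background-subtracted and dye-normalized, per the file headers, by Agilent Feature Extraction 11.0.1.1; the submitters' processing notes name 10.7.3.1. The deposited series table holds log2 ratios, which differed from the scanner's ratios on the log2 scale by at most 0.0005 on any array for probes with 1 spot.

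Median signals were corrected with normexp (offset 50) and normalized by loess in limma 3.58.1 (R 4.3.3). Feature outliers and spots with non-uniform background (2597 in all), and control spots, were left out. Probes were named through accessions in a RefSeq table (26581 of 39429 probes), and the brightest probe stood for a gene. A gene was tested if well above background in red on at least 3 arrays with at least 2 values per group. The sample channel levels are log2 red signals after normexp and quantile normalization between arrays, without loess. Levels of the reference channel were made in the same way from green signals. Groups were compared with lmFit and eBayes, without a block, with Benjamini-Hochberg adjustment. The low number of arrays limits the precision. On simulated data, 42% of genes raised by 0.5 (log2) and 98% of those raised by 1 were called among 25370 genes. There, 50 genes were changed at each size, with independent noise and no shift shared by an array or slide. The mitosis and G2/M genes varied more than most genes and varied together, so these shares need not hold for them. Alternatives covered normalization, flags, filters, probe choice, variance model, slide, replicate number and left-out arrays.

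The genes and lists were chosen with earlier results of these data known. By the rule for named genes, values on every array are given for 10 genes chosen by name (Mki67, Top2a, Ccnb1, Cdk1, Plk1, Aurkb, Foxm1, Cdc20, Birc5 and Kif20a), every called gene and the gene with the smallest p of each role; up to 6 called genes of each other list are named by smallest p. Kif22 and Stmn1 were added after their values were seen.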

Additional observations from a re-analysis of the deposited data

Results flagged for a closer look

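On WT3, Cenpa, the centromeric histone variant, lay apart from the other wild-type arrays. Its log2 ratio was -1.08 there, against -0.78, -0.83 and -0.79 on WT1, WT2 and WT4, and the gap to the nearest of them was 0.832 of the whole wild-type range. This was 1 of 48 genes examined in this way, and chance alone gives such a gap in about 1 in 20 groups. WT3 was also the lowest wild-type array for 40 of the 48 genes.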

How the results depend on the processing

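The count of mitosis and G2/M genes called higher (3) was 1 with the scanner's ratios, 1 with the series table, 5 with median centring, 0 with slide as a fixed block and 6 with slide as a random block (correlation -0.14). It ran from 1 to 5 with 1 array left out, and was 1 without WT4 and KO3 together. No setting called any of them lower. Their median difference (0.27) stayed above 0 throughout, from 0.15 with slide as a fixed block to 0.37 with median centring, and from 0.17 to 0.36 with 1 array left out. With slide as a fixed block, differences near 0 changed sign for Foxm1 (-0.047), Ccnb2 (-0.015), Melk (-0.054), Racgap1 (-0.0020) and Smc4 (-0.023), none of them called; the cause was not tested. Nek2 lost its call in 3 of 21 settings, Kif23 in 8 and Kif20a in 11.

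Of all genes, 1901 were called (828 higher), against 1615 (895 higher) with median centring, 478 with slide as a fixed block, 1096 without WT4 and KO3, and 1251 to 1887 with 1 array left out. The other mitosis genes called higher (7) numbered 3 with the scanner's ratios, the series table or the sample channel alone, 4 with flags applied after the background model, 0 with slide fixed, 0 without WT4 and KO3, and 3 to 10 with 1 array left out. The S-phase genes called higher (2) numbered 0 with the scanner's ratios, the series table, slide fixed, or without WT4 and KO3, 1 with the sample channel alone, 5 with median centring, 4 with a robust trended variance, 6 with slide as a random block, and 0 to 7 with 1 array left out.

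With the replicate number as a block, 1 mitosis and G2/M gene (Kif23), 1070 of all genes, 2 other mitosis genes and 2 S-phase genes were called. Same-numbered samples correlated at 0.04, 0.24 and 0.02 in their deviations, and differently numbered samples at -0.24 to 0.18. With so few arrays, these correlations cannot decide whether the numbers pair the samples.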
